A study of Mus musculus with 6 samples.

Results

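The 35 genes described here encode proteins that copy DNA and divide the cell, and they serve as a readout of how much a culture is cycling. They were chosen by symbol from knowledge of the cell cycle, 13 for S phase and 22 for mitosis, out of 29018 genes in the deposited table, and all 35 passed the filter on low counts that left 18221 genes to test. Each symbol matched 1 row of the table. RNA came from cultured osteoblasts, the bone-forming cells, isolated from skull bones (calvaria) of neonatal mice and then differentiated in osteogenic conditions. The 3 KO libraries are labelled as knockout of NDR1, the product of Stk38 and a kinase related to LATS1 and LATS2 of the Hippo pathway, and the 3 WT libraries as wild type. No other allele or agent is named for either genotype, and the labels give neither the strain, the sex, the design of the knockout allele nor whether replicates came from separate animals or cultures, so the p-values rest on library-to-library spread alone, and that spread could be technical. Libraries were made from whole cultures with poly(A) selection, in which more cycling cells and more RNA per cycling cell cannot be told apart.

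A cell commits to division when cyclin E with its kinase partner frees E2F transcription factors from the retinoblastoma protein, and E2F factors then switch on the genes of DNA synthesis. Later, in G2, B-MYB and FOXM1 join the MuvB complex and switch on a later wave of genes for the spindle, the kinetochore and mitotic exit, many through a promoter element called the CHR. In quiescent cells the same elements hold both waves off through the DREAM complex. Calvarial osteoblast cultures multiply first and slow their division as they differentiate, so that transcripts of both waves normally thin out in mature cultures.

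Some promoters of the members carried the letters of these control elements, and windows that hold them are printed to show where the letters stand. The windows of Ccne1, E2f1, Mybl2, Tyms, Birc5 and Nusap1 held no match to any of the motifs searched. RefSeq promoter windows, from 250 bases before to 50 bases after a transcription start in GRCm38.p6, were matched by symbol for 28 of the 35 members, and the others (Ccne2, Mcm4, Ccna2, Foxm1, Aurkb, Kif20a and Tpx2) were not searched. The E2F motif was taken as TTTCCCGC, TTTCGCGC, TTTGCCGC or TTTGGCGC, the CHR as TTTGAA and the NF-Y box as CCAAT, each on both strands, and matches may overlap. A match is a description of letters and not a shown binding site. Other spellings and bases outside the windows were not searched, so a window without a match does not show that a gene lacks a site.

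Among 11 S phase members with a window, 4 (36.4%) held the E2F motif, against 2.60% of the 27025 genes in the table of windows. All 4 were subunits of the MCM helicase and each held at least 2 matches. None of the 3 S phase members called higher (Ccne1, E2f1 and Rrm2) held it. The windows of the 4, on the strand of the gene with E2F matches in capitals, were those of Mcm3 (minus strand, chr1:20820263-20820562), Mcm5 (plus strand, chr8:75109259-75109558), Mcm6 (minus strand, chr1:128359656-128359955) and Mcm7 (minus strand, chr5:138171834-138172133, 1 of its 2 windows). In Mcm5 and Mcm6 a pair of matches on opposite strands overlapped and reads as 1 longer run of capitals.
Mcm3: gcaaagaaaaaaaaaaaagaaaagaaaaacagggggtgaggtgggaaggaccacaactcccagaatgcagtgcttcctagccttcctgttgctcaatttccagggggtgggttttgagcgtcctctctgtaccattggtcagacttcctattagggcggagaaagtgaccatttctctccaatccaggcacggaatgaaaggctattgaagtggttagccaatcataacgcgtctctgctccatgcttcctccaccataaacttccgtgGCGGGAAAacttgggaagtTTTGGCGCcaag
Mcm5: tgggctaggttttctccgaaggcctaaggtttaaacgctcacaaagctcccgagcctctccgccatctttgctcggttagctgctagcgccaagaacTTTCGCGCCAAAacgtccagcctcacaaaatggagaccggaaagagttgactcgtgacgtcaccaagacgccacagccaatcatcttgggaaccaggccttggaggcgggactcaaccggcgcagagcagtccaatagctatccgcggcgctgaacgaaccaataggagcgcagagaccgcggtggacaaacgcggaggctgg
Mcm6: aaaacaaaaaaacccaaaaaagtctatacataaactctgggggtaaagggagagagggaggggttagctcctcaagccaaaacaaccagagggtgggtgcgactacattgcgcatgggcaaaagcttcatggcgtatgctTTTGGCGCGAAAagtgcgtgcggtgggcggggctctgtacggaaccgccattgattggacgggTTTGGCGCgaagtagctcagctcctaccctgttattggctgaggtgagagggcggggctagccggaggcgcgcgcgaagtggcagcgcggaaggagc
Mcm7: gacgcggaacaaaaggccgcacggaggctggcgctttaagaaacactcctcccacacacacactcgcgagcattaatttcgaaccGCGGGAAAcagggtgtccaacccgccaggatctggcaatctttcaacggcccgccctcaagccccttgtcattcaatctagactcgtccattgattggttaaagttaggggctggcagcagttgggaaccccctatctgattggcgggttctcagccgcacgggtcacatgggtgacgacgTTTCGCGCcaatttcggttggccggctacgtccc

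Among 17 mitosis members with a window, 12 (70.6%) held the CHR letters, against 20.2% of all genes and 1 of the 11 S phase members (Mcm2). At least 2 CCAAT boxes stood in 11 of the 17 (64.7%), against 13.3% of all genes. Cdk1 was the sole mitosis member with the E2F motif. The 4 mitosis members with a CHR match and the lowest p in the comparison of genotypes were Cdc20 (minus strand, chr4:118437294-118437593), Ube2c (plus strand, chr2:164769679-164769978), Plk1 (plus strand, chr7:122159185-122159484) and Aurka (minus strand, chr2:172370521-172370820). Their windows are given with the CHR in capitals.
Cdc20: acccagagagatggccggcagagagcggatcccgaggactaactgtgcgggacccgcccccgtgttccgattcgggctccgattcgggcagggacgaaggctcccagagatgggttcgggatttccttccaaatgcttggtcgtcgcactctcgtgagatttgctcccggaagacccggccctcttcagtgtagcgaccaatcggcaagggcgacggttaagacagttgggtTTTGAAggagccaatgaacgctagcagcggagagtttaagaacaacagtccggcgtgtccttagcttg
Ube2c: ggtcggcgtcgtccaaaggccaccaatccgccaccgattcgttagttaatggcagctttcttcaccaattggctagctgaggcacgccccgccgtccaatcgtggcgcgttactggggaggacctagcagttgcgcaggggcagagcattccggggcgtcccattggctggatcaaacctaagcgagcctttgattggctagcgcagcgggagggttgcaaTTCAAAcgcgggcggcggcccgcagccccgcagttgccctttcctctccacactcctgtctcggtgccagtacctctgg
Plk1: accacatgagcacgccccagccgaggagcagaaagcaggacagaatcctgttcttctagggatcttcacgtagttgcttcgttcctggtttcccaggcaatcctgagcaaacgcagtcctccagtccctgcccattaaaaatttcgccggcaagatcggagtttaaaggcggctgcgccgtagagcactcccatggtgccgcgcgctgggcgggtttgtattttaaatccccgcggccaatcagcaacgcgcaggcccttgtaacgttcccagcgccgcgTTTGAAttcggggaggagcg
Aurka: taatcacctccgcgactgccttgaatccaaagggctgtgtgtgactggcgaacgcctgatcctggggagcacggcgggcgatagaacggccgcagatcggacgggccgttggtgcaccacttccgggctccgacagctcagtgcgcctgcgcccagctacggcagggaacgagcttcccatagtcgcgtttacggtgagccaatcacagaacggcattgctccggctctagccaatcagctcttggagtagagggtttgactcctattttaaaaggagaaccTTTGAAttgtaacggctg

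**Figure D1:**
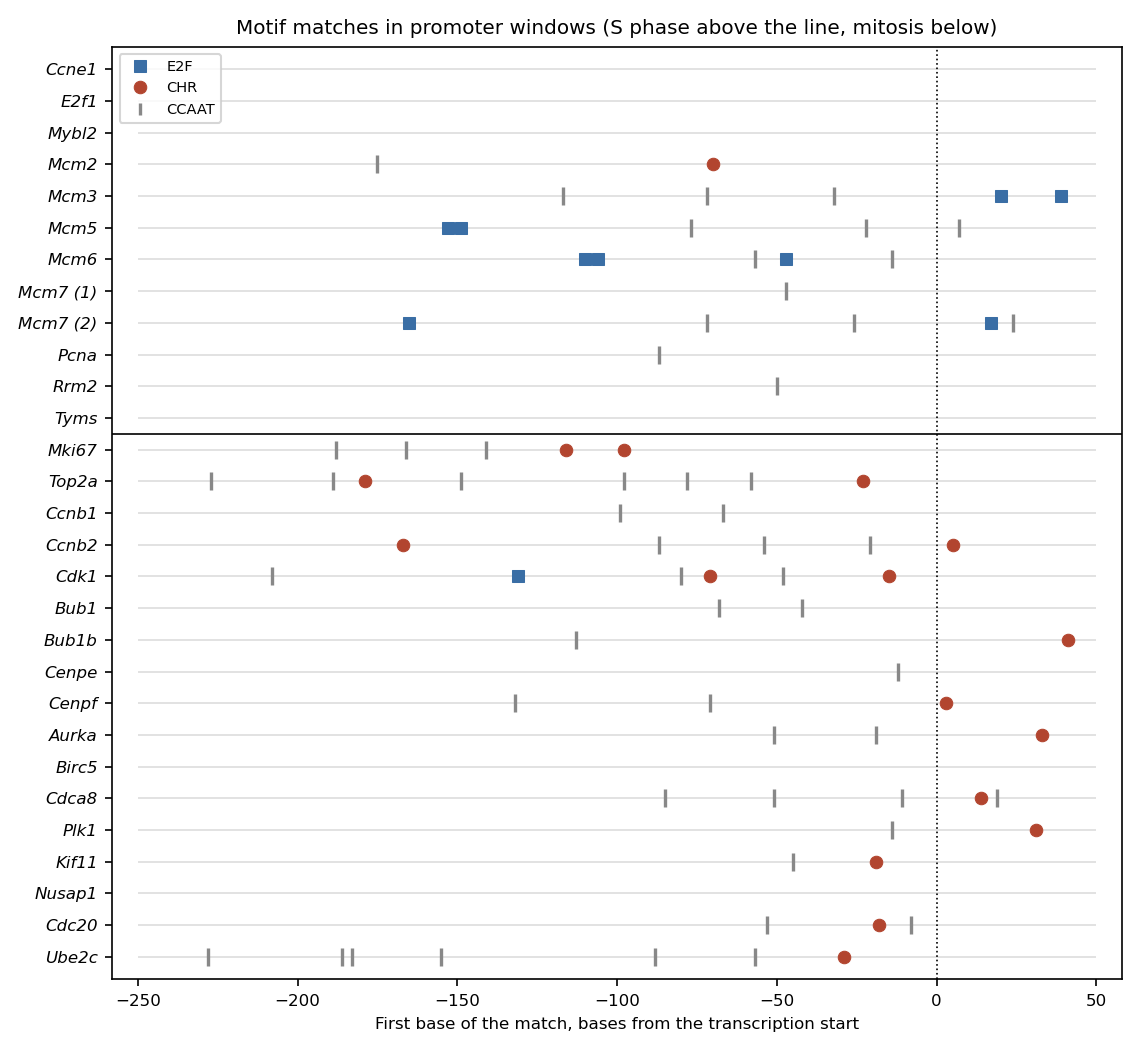
First base of each match to the E2F, CHR and CCAAT letters, in bases from the transcription start, for 29 promoter windows of 28 members, S phase above the line and mitosis below. CHR matches stand in 12 of 17 mitosis members, and E2F matches in Mcm3, Mcm5, Mcm6, Mcm7 and Cdk1.

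Total counts were 61461870 to 76159034 in KO and 66308530 to 68395991 in WT. The members were read at depth, with 687 to 11951 counts in KO libraries and 588 to 10089 in WT libraries. CPM levels are counts scaled to a common library size with TMM factors between libraries. Changes are given as log2 of KO over WT ± SE from edgeR's quasi-likelihood test on all 18221 genes. Genes whose p, after Benjamini-Hochberg adjustment, was under 0.05 are said to be called. Stk38 itself had 3843, 3004 and 4040 counts in KO and 4781, 5082 and 5331 counts in WT, so the knocked-out gene was lower in each KO library but still read (log2 change -0.61 ± 0.05, edgeR, Benjamini-Hochberg adjusted p = 8.10e-06). A large part of the transcriptome differed between genotypes, with 11.2% of genes tested called higher and 11.7% called lower in KO. In all 22.9% were called. After TMM, 49.0% of these were higher, but on library totals alone 63.0% were, a scaling that moved the median of all genes to 0.052 on the log2 scale, against 0.0038 with TMM.

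Apart from Ccne1, the genes of both waves changed less than 1.5-fold between KO and WT cultures. Log2 changes were above 0 for 9 of 13 S phase members and 21 of 22 mitosis members. Over the main test and its alternatives these numbers ran from 7 to 11 and from 19 to 21. Of 13 S phase members 3 were called higher (23.1%), of 22 mitosis members 5 were called higher (22.7%), and none of either was called lower, against 11.2% and 11.7% of all genes tested. The median log2 change was 0.06 for S phase members and 0.10 for mitosis members, beside 0.0038 for all genes tested. Without KO replicate 2 the S phase median was 0.01. In KO the 3 libraries lay wholly above the 3 WT libraries for 5 S phase and 11 mitosis members, beside 19.2% of all genes tested, and wholly below for Kif11 alone, beside 19.1%. On library totals without TMM, 4 S phase and 10 mitosis members were called higher (background 15.2%), and 4 and 10 likewise in limma on log2(FPKM + 1) (background 18.9%), while library totals called 8.94% of all genes lower. Only Ccne1 was called and changed at least 1.5-fold, as did 4.3% of all genes tested in the same direction.

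**Figure D2:**
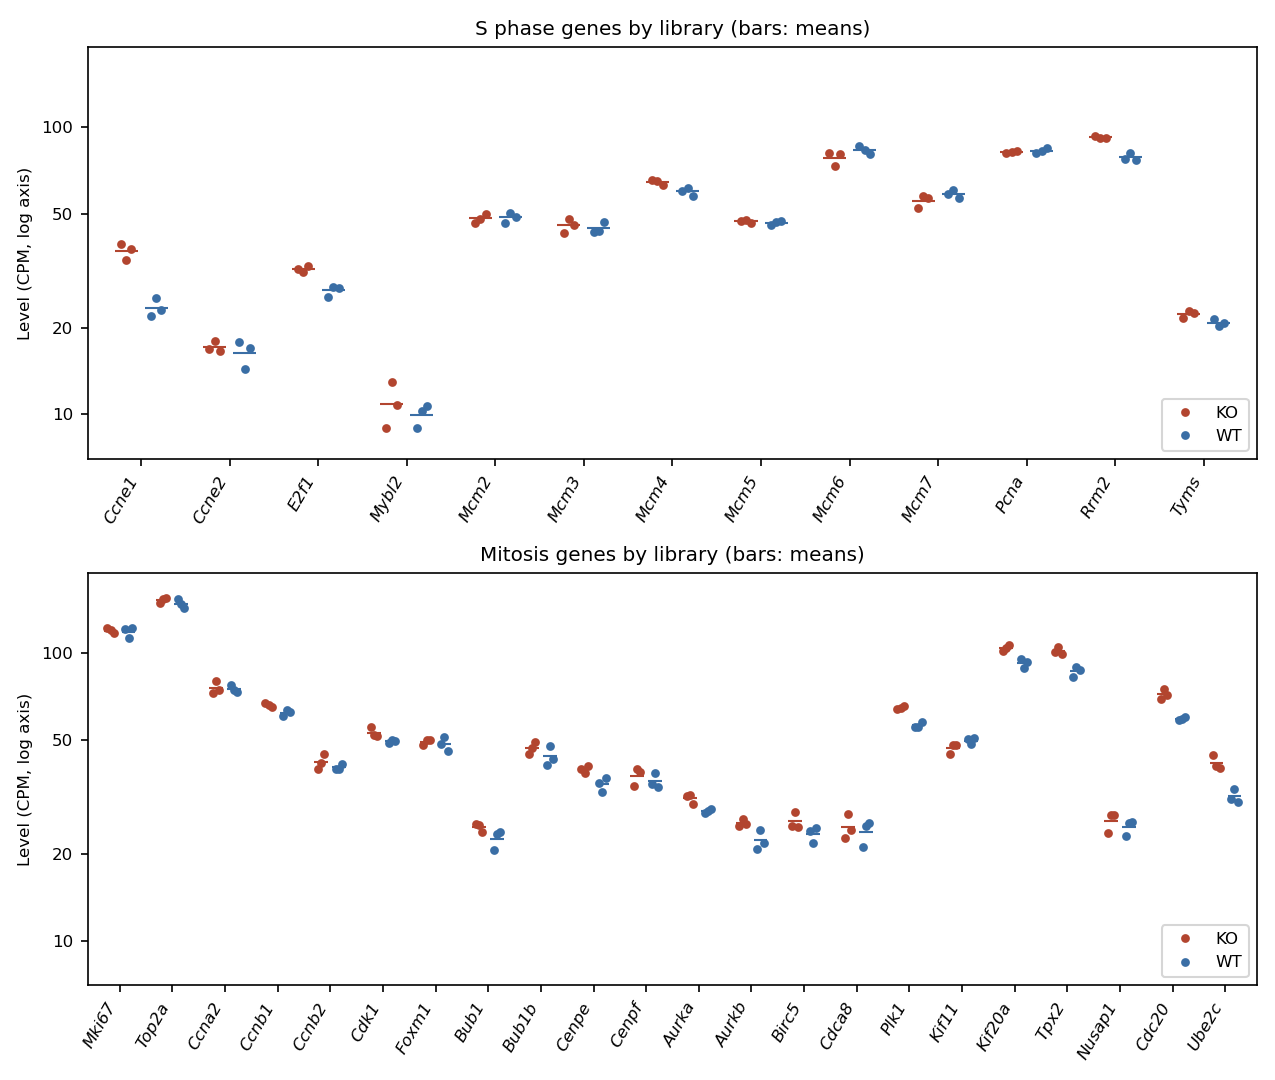
Level of each member in CPM (log axis) in the 3 KO libraries and the 3 WT libraries, with bars at the group means, S phase genes above and mitosis genes below. Many genes overlap between genotypes. All 3 KO points stand above the WT points for 5 S phase and 11 mitosis members, beside 19.2% of all genes tested. Among them are Ccne1, Rrm2, Plk1, Tpx2, Cdc20 and Ube2c.

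Cyclin E1 gave the largest change of all 35 members. Ccne1 (ENSMUSG00000002068, chromosome 7), which activates CDK2 to start S phase, stood at 39.2, 34.4 and 37.6 CPM in KO and 22.1, 25.4 and 23.1 CPM in WT. The lowest KO library was above the highest WT library, and the level was higher by 57.4% (95% interval 41.1 to 75.7%). Its log2 change came to 0.65 ± 0.07 (edgeR, Benjamini-Hochberg adjusted p = 7.80e-05). Its paralog Ccne2, which partners the same kinase, stood at 16.9, 17.97 and 16.7 CPM in KO and 17.9, 14.4 and 16.99 CPM in WT. These groups overlapped and the change of 0.06 ± 0.09, with a 95% interval of -0.13 to 0.26, was not called (edgeR, Benjamini-Hochberg adjusted p = 0.672). Ccne2 overlaps Ints8 on the opposite strand, which held 2990 to 3743 counts and was called lower at -0.16 ± 0.05 (edgeR, Benjamini-Hochberg adjusted p = 0.0405). If counting ignored strand, reads from a stretch that Ccne2 and Ints8 share cannot be told apart. The length of such shared stretches was not measured for any member. The ratio of Ccne1 to Ccne2 counts, which needs no scaling between libraries, was 2.32, 1.92 and 2.25 in KO and 1.24, 1.76 and 1.36 in WT.

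The transcription factors of the waves differed less. E2f1 (ENSMUSG00000027490, chromosome 2), the E2F factor that drives entry into S phase, stood at 32.1, 31.3 and 32.8 CPM in KO and 25.7, 27.8 and 27.6 CPM in WT. All KO libraries were above all WT libraries, by 18.6% (95% interval 8.85 to 29.2%) on average (edgeR, Benjamini-Hochberg adjusted p = 0.00889). Mybl2, which encodes B-MYB, is itself an E2F target and later a MuvB partner. It was the least abundant S phase member per length and stood at 8.99, 12.9 and 10.8 CPM in KO and 8.99, 10.3 and 10.7 CPM in WT. KO replicate 2 was the highest library and KO replicate 1 level with the lowest WT library, and the change of 0.13 ± 0.13 was not called (edgeR, Benjamini-Hochberg adjusted p = 0.564). Foxm1, the forkhead factor of the mitotic wave, averaged 49.3 ± 1.23 CPM in KO and 48.4 ± 2.58 CPM in WT (SD, n = 3 each), a log2 change of 0.03 ± 0.05 (edgeR, Benjamini-Hochberg adjusted p = 0.782).

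None of the 6 subunits of the MCM helicase, the ring that unwinds DNA at the replication fork, was called. Among all genes tested the share called was 22.9%. Mcm4 stood at 65.5, 64.7 and 62.8 CPM in KO and 60.02, 61.4 and 57.8 CPM in WT, and although its groups did not overlap, the change of 0.11 ± 0.04 missed the threshold (edgeR, Benjamini-Hochberg adjusted p = 0.0914). It passed on library totals without TMM and in limma's tests on FPKM, with an adjusted p as low as 0.0202. Mcm6 stood at 81.1, 73.2 and 80.7 CPM in KO and 85.7, 82.99 and 80.7 CPM in WT, a change of -0.09 ± 0.05 (edgeR, Benjamini-Hochberg adjusted p = 0.239). Mcm7, at -0.07 ± 0.05, overlaps Cops6 and Ap4m1 on the opposite strand. Cops6 held 5332 to 7467 counts and was called higher at 0.16 ± 0.05 (edgeR, Benjamini-Hochberg adjusted p = 0.0287). Ap4m1, at -0.09 ± 0.09, was not called (edgeR, Benjamini-Hochberg adjusted p = 0.581). If counting ignored strand, reads from a stretch that Mcm7 shares with either gene cannot be told apart. Mcm2, Mcm3 and Mcm5 were close to no change on the log2 scale (-0.01 ± 0.05, 0.03 ± 0.06 and 0.02 ± 0.04). The 95% intervals of the 6 subunits together ran from -0.19 to 0.20 on the log2 scale, so a change of the size seen for Ccne1 lay outside each of them. The 4 subunits whose windows carry the E2F letters ranged from -0.09 to 0.03.

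Among genes that supply the fork, a subunit of ribonucleotide reductase was higher and the sliding clamp was level. Rrm2 (ENSMUSG00000020649, chromosome 12), the regulated subunit of the enzyme that makes deoxynucleotides, stood at 93.4, 91.7 and 91.5 CPM in KO and 77.4, 81.1 and 76.8 CPM in WT. The groups were well apart, with KO higher by 17.6% (95% interval 11.4 to 24.1%) (edgeR, Benjamini-Hochberg adjusted p = 7.31e-04). Rrm1, the large subunit of the same enzyme and no member, averaged 212 ± 3.86 CPM in KO and 179 ± 5.24 CPM in WT (SD, n = 3 each) and was also called higher, at 0.25 ± 0.03 (edgeR, Benjamini-Hochberg adjusted p = 1.98e-04). Tyms, which makes thymidylate, stood at 21.6, 22.98 and 22.5 CPM in KO and 21.4, 20.3 and 20.9 CPM in WT. Its groups just cleared each other, but the change of 0.10 ± 0.06 was not called (edgeR, Benjamini-Hochberg adjusted p = 0.29). Pcna, the clamp that holds polymerases on DNA, stood at 81.4, 82.00 and 82.6 CPM in KO and 81.2, 82.9 and 84.2 CPM in WT, the closest match between genotypes of Rrm2, Tyms and Pcna, with a change of -0.01 ± 0.03 and a 95% interval of -0.09 to 0.06 (edgeR, Benjamini-Hochberg adjusted p = 0.82). A processed copy, Pcna-ps2, held 54 to 69 counts per library, little beside its parent.

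The 2 transcripts most used as marks of cycling cells did not separate the genotypes. Mki67, which encodes the Ki-67 coat of mitotic chromosomes, stood at 122, 121 and 117 CPM in KO and 122, 113 and 123 CPM in WT. Top2a, the topoisomerase that untangles sister chromosomes, stood at 149.7, 155 and 155 CPM in KO and 154, 149 and 144 CPM in WT. Both overlapped between groups, with changes of 0.01 ± 0.04 and 0.04 ± 0.03 (edgeR, Benjamini-Hochberg adjusted p = 0.876 and adjusted p = 0.458). Their 95% intervals were -0.07 to 0.09 and -0.03 to 0.11 with TMM. On library totals without TMM the changes were 0.060 ± 0.04 and 0.089 ± 0.03, and again neither was called.

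**Figure D3:**
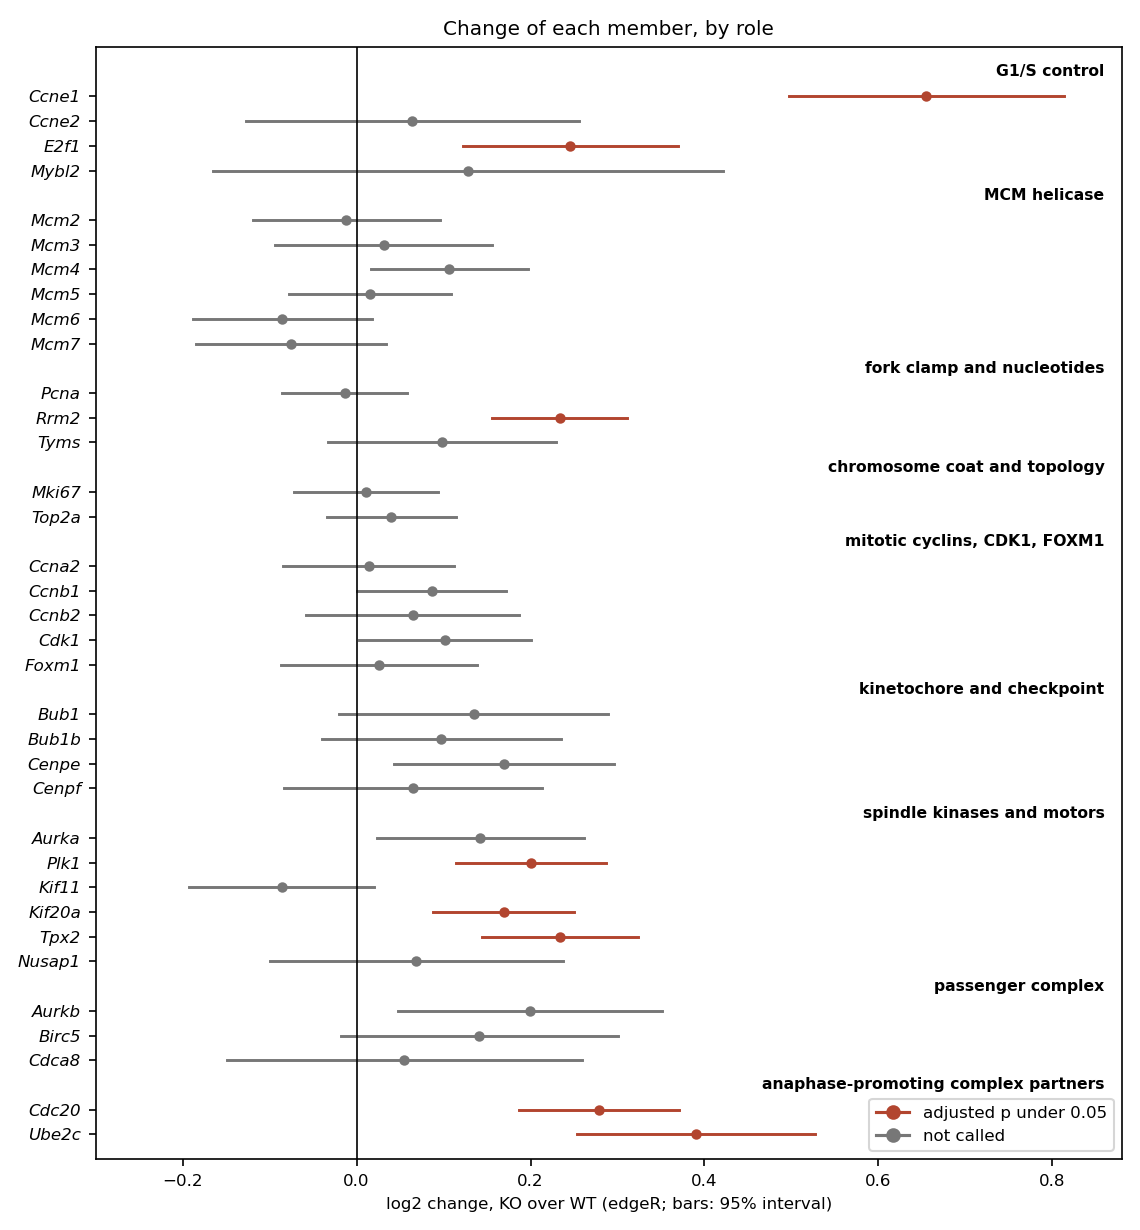
Log2 change of each member, KO over WT, with its 95% interval from edgeR, grouped by role. The 8 genes called higher are Ccne1, E2f1, Rrm2, Plk1, Kif20a, Tpx2, Cdc20 and Ube2c, and the intervals of most others reach across 0.

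The cyclins and kinase that drive entry into mitosis were level or nearly so. Ccna2, the cyclin of S phase and G2, averaged 76.04 ± 3.93 CPM in KO and 75.3 ± 1.93 CPM in WT, and Ccnb2, a B cyclin, 42.1 ± 2.59 CPM in KO and 40.2 ± 0.793 CPM in WT (SD, n = 3 each). Ccnb1, the main partner of CDK1, stood at 67.1, 66.1 and 64.9 CPM in KO and 60.5, 63.5 and 62.6 CPM in WT, and Cdk1 at 55.5, 51.98 and 51.8 CPM in KO and 48.9, 50.2 and 49.4 CPM in WT. KO libraries were above WT libraries for both of the last named genes, but neither passed after adjustment (0.09 ± 0.04 and 0.10 ± 0.04, edgeR, Benjamini-Hochberg adjusted p = 0.145 and adjusted p = 0.138). Both without TMM and by limma on log2(FPKM + 1), each gene was called, with adjusted p as low as 0.0270 for Ccnb1 and 0.0349 for Cdk1. Ccnb1-ps, a processed copy of Ccnb1, held 36 to 78 counts per library, against 3956 or more for its parent, and Ccna2 overlaps Exosc9 on the opposite strand.

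None of the 4 genes of the kinetochore and checkpoint or the 3 of the passenger complex was called, beside 22.9% of all genes tested. All were estimated above 0. KO libraries lay wholly above WT libraries for Cenpe, Aurkb and Birc5, beside 19.2% of all genes tested. Cenpe, the kinesin that carries chromosomes to the spindle equator, stood at 39.5, 38.3 and 40.6 CPM in KO and 35.5, 32.9 and 36.97 CPM in WT and came closest to the threshold, at 0.17 ± 0.06 (edgeR, Benjamini-Hochberg adjusted p = 0.0568). The checkpoint kinase Bub1 and its relative Bub1b, which encodes BUBR1, were at 0.13 ± 0.07 and 0.10 ± 0.06, and Cenpf, a large protein of the outer kinetochore, at 0.06 ± 0.07. Their groups overlapped, and none passed (edgeR, Benjamini-Hochberg adjusted p = 0.212, adjusted p = 0.321 and adjusted p = 0.565). The chromosomal passenger complex corrects faulty attachments and then marks the site of cleavage. Its kinase Aurkb stood at 25.2, 26.5 and 25.6 CPM in KO and 20.9, 24.4 and 21.9 CPM in WT, with a change of 0.20 ± 0.07 (edgeR, Benjamini-Hochberg adjusted p = 0.0608). Birc5, which encodes the survivin subunit, was at 0.14 ± 0.07 and Cdca8, which encodes borealin, at 0.05 ± 0.09, and neither was called (edgeR, Benjamini-Hochberg adjusted p = 0.204 and adjusted p = 0.741). Cenpe and Aurkb were called in 5 of 15 alternatives each, among them library totals without TMM and leaving out WT replicate 3 for Cenpe or WT replicate 2 for Aurkb.

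Of 6 spindle kinases, motors and binding proteins, 3 were called higher, beside 11.2% of all genes tested. In 4 of the 6 all KO libraries were above all WT libraries, beside 19.2% of all genes tested. Plk1 (ENSMUSG00000030867, chromosome 7), the polo kinase of centrosome maturation and mitotic exit, stood at 63.9, 64.7 and 65.5 CPM in KO and 55.4, 55.5 and 57.9 CPM in WT, higher by 14.9% (95% interval 8.26 to 22.03%) in KO. Tpx2 (ENSMUSG00000027469, chromosome 2), which nucleates spindle microtubules and activates Aurora A, stood at 101, 105 and 99.4 CPM in KO and 82.6, 89.6 and 87.9 CPM in WT, higher by 17.6% (95% interval 10.6 to 25.2%). Kif20a (ENSMUSG00000003779, chromosome 18), a kinesin of the central spindle, stood at 102, 104 and 107 CPM in KO and 95.6, 89.3 and 93.1 CPM in WT, higher by 12.5% (95% interval 6.31 to 18.9%). The 3 log2 changes were 0.20 ± 0.04, 0.23 ± 0.04 and 0.17 ± 0.04 (edgeR, Benjamini-Hochberg adjusted p = 0.00368, adjusted p = 0.00179 and adjusted p = 0.00677). Kif20a overlaps Cdc23, which is read about as deeply on the opposite strand and was at -0.06 ± 0.03. If counting ignored strand, reads from a stretch that the 2 genes share cannot be told apart.

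The remaining genes of this group were not called. Aurka, the Aurora A kinase that TPX2 activates, stood at 31.9, 32.2 and 29.95 CPM in KO and 27.9, 28.4 and 28.9 CPM in WT, and its change of 0.14 ± 0.05 missed the threshold (edgeR, Benjamini-Hochberg adjusted p = 0.0875) although its groups did not overlap. Aurka was called in 5 of 15 alternatives, on library totals without TMM and in limma on FPKM. Kif11, the kinesin that pushes spindle poles apart, stood at 44.6, 47.9 and 48.1 CPM in KO and 50.3, 48.3 and 50.7 CPM in WT. It was the sole member whose KO libraries were all below WT, narrowly, and its change of -0.09 ± 0.05 was not called (edgeR, Benjamini-Hochberg adjusted p = 0.25). Nusap1, a protein that bundles spindle microtubules, averaged 26.2 ± 2.17 CPM in KO and 24.9 ± 1.55 CPM in WT (SD, n = 3 each). The ratio of Tpx2 to Kif11 counts was 2.27, 2.20 and 2.07 in KO and 1.64, 1.86 and 1.73 in WT. The pairs of genes given as ratios were chosen after the values were seen.

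Both partners of the anaphase-promoting complex, the ubiquitin ligase that ends mitosis, were called higher, beside 11.2% of all genes tested. Cdc20 (ENSMUSG00000006398, chromosome 4), its activator in metaphase, stood at 69.3, 75.1 and 71.7 CPM in KO and 58.8, 59.2 and 60.1 CPM in WT. Ube2c (ENSMUSG00000001403, chromosome 2), the ubiquitin-conjugating enzyme that serves it, stood at 44.5, 40.5 and 40.1 CPM in KO and 31.2, 33.7 and 30.5 CPM in WT. In each the lowest KO library cleared the highest WT library, and the levels were higher by 21.3% (95% interval 13.9 to 29.3%) and 31.1% (95% interval 19.2 to 44.1%). The log2 changes of 0.28 ± 0.04 and 0.39 ± 0.06 were the largest of the mitosis members (edgeR, Benjamini-Hochberg adjusted p = 6.72e-04 and adjusted p = 0.00102). Against Mki67 in the same library, Cdc20 counts stood at ratios of 0.566, 0.623 and 0.610 in KO and 0.484, 0.523 and 0.490 in WT. Cdc20 overlaps Elovl1 on the opposite strand, which held 4876 to 6467 counts and was called higher at 0.15 ± 0.04 (edgeR, Benjamini-Hochberg adjusted p = 0.0270). If counting ignored strand, reads from a stretch that Cdc20 and Elovl1 share cannot be told apart. Ube2c overlaps Tnnc2, which held at most 40 counts.

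Genes of the complex itself were called at shares near or under those of all genes. Of 17 other genes of the anaphase-promoting complex, counting its activator Fzr1, its inhibitor Fbxo5 and its enzyme Ube2s, 1 was called higher (5.88%) and 2 lower (11.8%), beside 11.2% and 11.7% of all genes tested, with a median log2 change of -0.03. Scaling decided the sign of that median, which was 0.01 on library totals without TMM, where 10 of the 17 genes were above 0, against 4 with TMM. The subunits Anapc5 and Cdc26 averaged 237 ± 7.61 CPM in KO and 266 ± 8.25 CPM in WT, and 36.9 ± 1.02 CPM in KO and 44.3 ± 2.30 CPM in WT (SD, n = 3 each). Their changes were -0.17 ± 0.03 and -0.27 ± 0.05, and the subunit Cdc27 was at 0.14 ± 0.04 (edgeR, Benjamini-Hochberg adjusted p = 0.00432, adjusted p = 0.00449 and adjusted p = 0.0346). Anapc5 missed the threshold in limma on unfiltered FPKM and with the block, Cdc26 without a filter, and Cdc27 in 5 of 15 alternatives, with adjusted p up to 0.0991, 0.0511 and 0.135. The subunit Anapc1, at -0.09 ± 0.03, was not called (edgeR, Benjamini-Hochberg adjusted p = 0.0998).

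**Figure D4:**
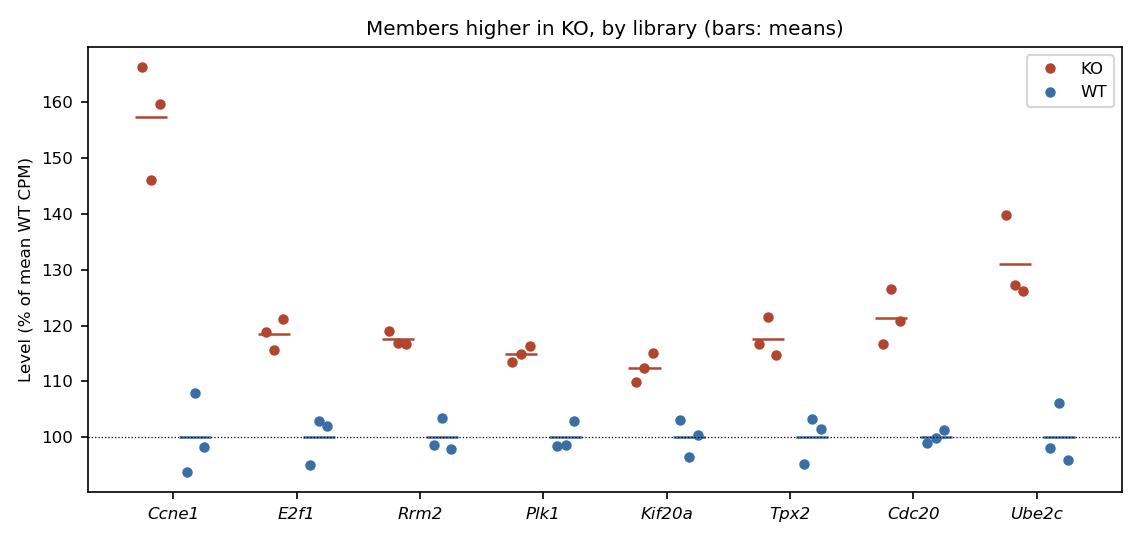
The 8 members called higher in KO, each library as a percentage of the mean WT level in CPM, KO left and WT right, with bars at the means. By edgeR's estimate Ccne1 stands 57.4% above WT and Kif20a 12.5%, and no KO point of these genes falls among the WT points.

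Per length, on the authors' FPKM scale, the members were ordered by their mean over all 6 libraries, which pools the genotypes. Cdc20 averaged 36.9 ± 1.58 FPKM in KO and 29.4 ± 0.344 FPKM in WT (SD, n = 3 each). Pcna averaged 32.7 ± 0.136 FPKM in KO and 31.9 ± 0.605 FPKM in WT (SD, n = 3 each), below Cdc20 in every KO library and above it in every WT library. Rrm2 averaged 31.9 ± 0.511 FPKM in KO and 26.2 ± 0.822 FPKM in WT (SD, n = 3 each). Next came Plk1 and Ccnb2, with means of 28.2 and 26.3 FPKM in KO libraries, against 23.7 and 24.3 FPKM in WT. At the low end stood Tyms at 3.51 ± 0.114 FPKM in KO and 3.17 ± 0.0832 FPKM in WT (SD, n = 3 each). Cenpf was at 2.33 ± 0.163 FPKM in KO and 2.15 ± 0.129 FPKM in WT (SD, n = 3 each). Mybl2 was at 2.25 ± 0.413 FPKM in KO and 1.99 ± 0.178 FPKM in WT (SD, n = 3 each). Of 34 pairs of neighbours in this order over the 6 libraries, 32 overlapped in their ranges, and the order stepped clearly below Ccnb2 and below Tyms. The MCM subunits, which form a ring with 1 copy of each, ran from 6.62 FPKM in KO and 6.45 FPKM in WT for Mcm2 to 17.2 FPKM in KO and 15.4 FPKM in WT for Mcm4.

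Summed over the members, S phase genes held 629, 632 and 636 CPM in KO and 594, 608 and 598 CPM in WT. Mitosis genes summed to 1254, 1296 and 1275 CPM in KO and 1174, 1185 and 1185 CPM in WT. Both sums were higher in every KO library than in any WT library, and both include the members called higher. Of these, Rrm2 averaged 92.2 CPM in KO and 78.4 CPM in WT, Ccne1 37.1 and 23.6 CPM, and E2f1 32.0 and 27.0 CPM. Nearly all of the difference in the S phase sum lay in these 3 genes. Sums without the called members were not taken. The median member of the S phase class stood 0.02, 0.12 and 0.04 above the WT mean on the log2 scale in the KO libraries, which overlaps WT replicate 2 at 0.04. The median mitosis member stood at 0.10, 0.14 and 0.09 in the KO libraries and at -0.02, 0.01 and 0.02 in the WT libraries, with no overlap. Within a genotype the members varied little, with a coefficient of variation over libraries of 0.701 to 18.1% in KO (median 3.87%) and 1.13 to 10.8% in WT (median 3.94%).

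The 27 members that were not called are not thereby shown to be unchanged. Their log2 changes ran from -0.09 to 0.20, and 22 were above 0. Their 95% intervals reached a median of 0.12 to each side, and the widest reach was from a 12.5% decrease for Kif11 to a 33.9% increase for Mybl2. Before adjustment 6 of them had p under 0.05 in edgeR. Some upper limits, such as 27.5% for Aurkb, exceeded the 12.5% increase estimated for the called member Kif20a. Others, such as 6.73% for Mki67, did not.

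Other genes of the 2 waves gave unlike counts, while of all genes tested 11.2% were called higher and 11.7% lower. Of 53 other S phase genes 1 was called higher (1.89%) and 1 lower (1.89%), with a median log2 change of 0.04. These were Rrm1, above, and Casp8ap2, which encodes a nuclear protein needed for histone gene expression, at -0.26 ± 0.06 (edgeR, Benjamini-Hochberg adjusted p = 0.00651), which limma lost on FPKM once replicate number was a block. The replication factor Gins2 was at 0.20 ± 0.07 and fell short of a call (edgeR, Benjamini-Hochberg adjusted p = 0.0548). The number called higher reached 5 on library totals without TMM (background 15.2%) and 3 without KO replicate 2.

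Of 56 other mitosis genes 13 were called higher (23.2%) and 1 lower (1.79%), beside 11.2% and 11.7% of all genes tested. Their median log2 change was 0.10. Psrc1, a microtubule-binding protein of the spindle, averaged 93.8 ± 4.29 CPM in KO and 49.8 ± 2.66 CPM in WT, and Ckap2, another spindle protein, 70.6 ± 1.79 CPM in KO and 47.6 ± 1.59 CPM in WT (SD, n = 3 each). Their log2 changes were 0.91 ± 0.05 and 0.57 ± 0.04, and Anln, which encodes anillin of the cleavage furrow, and Ncaph, a condensin subunit, were at 0.25 ± 0.03 and 0.31 ± 0.06 (edgeR, Benjamini-Hochberg adjusted p = 5.94e-07, adjusted p = 5.25e-06, adjusted p = 5.23e-04 and adjusted p = 0.00244). The 4 were called in all 15 alternatives. The single lower gene, the condensin subunit Smc4, named after its value was seen, was at -0.11 ± 0.04 and was called in 1 of 15 alternatives. The number called higher fell to 8 when KO replicate 2, WT replicate 1 or WT replicate 2 was left out. It was 18 on library totals without TMM, where 15.2% of all genes tested were called higher. Whether the S phase and mitosis lists differ from each other was not tested.

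**Figure D5:**
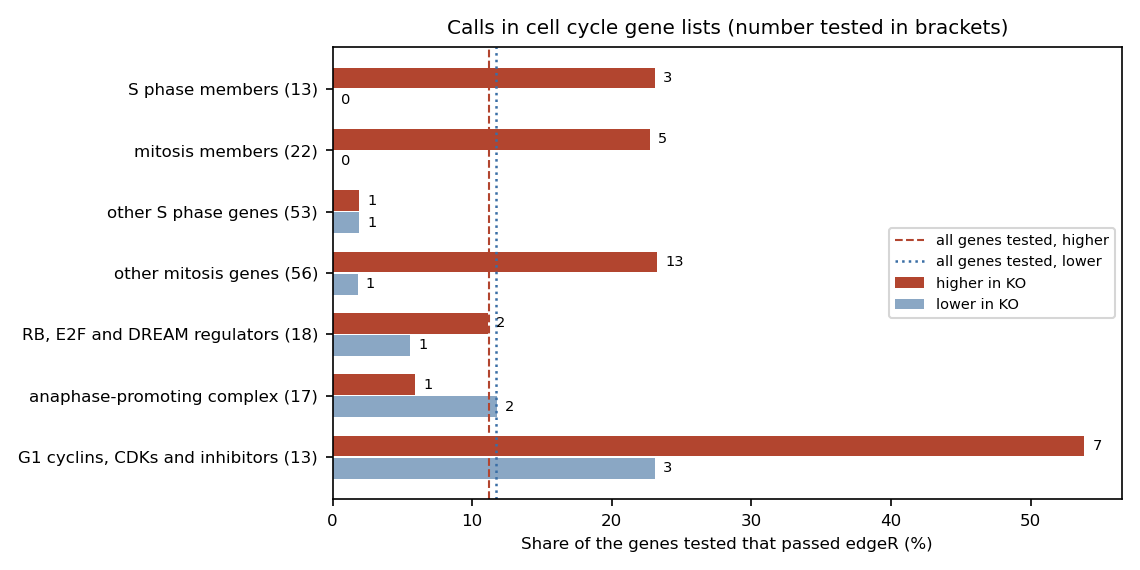
Share of the genes tested in each cell cycle list that edgeR called higher or lower in KO, with the number of genes at each bar and the share over all 18221 genes as vertical lines (11.2% higher and 11.7% lower). Other mitosis genes reach 23.2% higher, other S phase genes 1.89%, and the G1 list has the most calls.

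Of 18 RB, E2F and DREAM genes, which regulate the waves, 2 were called higher (11.1%) and 1 lower (5.56%), with a median of 0.04, beside 11.2% and 11.7% of all genes tested. Mybl1, a relative of B-MYB, averaged 7.61 ± 0.85 CPM in KO and 4.70 ± 0.2 CPM in WT (SD, n = 3 each), a change of 0.69 ± 0.12. The retinoblastoma gene Rb1 was at 0.23 ± 0.07, and Rbbp4, a histone chaperone of the MuvB core, at -0.16 ± 0.03 (edgeR, Benjamini-Hochberg adjusted p = 0.00209 for Mybl1, adjusted p = 0.0345 for Rb1 and adjusted p = 0.00243 for Rbbp4). Rb1 was not called in 9 of 15 alternatives and Rbbp4 in 1 of 15, with adjusted p up to 0.132 and 0.0815. The E2F repressor E2f6 was at 0.18 ± 0.06 and fell short of a call (edgeR, Benjamini-Hochberg adjusted p = 0.0568). The number called higher in this list ran from 1 to 5 over the 15 alternatives.

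Upstream, D cyclins and CDK inhibitors that act before S phase showed larger changes than most members. Of 13 G1 cyclins, kinases and inhibitors 7 were called higher (53.8%) and 3 lower (23.1%), beside 11.2% and 11.7% of all genes tested. Ccnd2 averaged 1048 ± 10.7 CPM in KO and 570.3 ± 1.97 CPM in WT (SD, n = 3 each), and Ccnd1 changed by 1.04 ± 0.02, while of the inhibitors Cdkn1a changed by 0.77 ± 0.03 and Cdkn1c by -1.15 ± 0.04 (edgeR, Benjamini-Hochberg adjusted p = 1.38e-09 for Ccnd1, adjusted p = 2.03e-09 for Ccnd2, adjusted p = 4.35e-08 for Cdkn1a and adjusted p = 3.85e-08 for Cdkn1c).

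Markers of several cell types differed between genotypes beside the small changes of the members. The counts of calls that follow stand beside 11.2% of all genes tested called higher and 11.7% called lower. Macrophage markers were called higher for 11 of 12 genes, and their levels summed to 994 to 1099.8 CPM in KO and 392 to 511 CPM in WT. Osteoblast markers were called lower for 5 of 8, with sums of 22769 to 23994 CPM in KO and 31169.7 to 32343 CPM in WT. Nearly all of that sum was Col1a1, which averaged 23044 CPM in KO and 31684 CPM in WT. The other 4 called lower were Runx2, Alpl, Phex and Dmp1, while Sp7, Ibsp and Bglap, at log2 changes of 0.15 ± 0.07, 0.39 ± 0.16 and -0.90 ± 0.50, were not called. Osteoclast markers were called lower for 2 of 6 tested (Ctsk and Mmp9), with sums of 236 to 240.3 CPM in KO and 455 to 460.2 CPM in WT, and 2 of the 8 listed, Calcr and Dcstamp, were not matched in the table. Ctsk and Mmp9 carried that sum, and Acp5, Oscar, Atp6v0d2 and Ocstamp, at 0.07 ± 0.08, 0.40 ± 0.49, 0.72 ± 0.42 and -1.79 ± 0.86, were not called. Adipocyte markers were called lower for all 5 tested, with Cidec, Lep and Pck1 at 0 in KO, and summed to 0.494 to 1.05 CPM in KO and 9.82 to 15.5 CPM in WT, endothelial markers (3 of 5 lower) to 6.85 to 8.06 CPM in KO and 13.5 to 13.7 CPM in WT, and skeletal muscle markers (3 of 6 lower; Ckm, Mybph and Myot at 0 in KO) to 5.02 to 6.37 CPM in KO and 8.44 to 10.3 CPM in WT. Chondrocyte markers, 2 called higher and 2 lower of 5, summed to 4665 to 5067 CPM in KO and 3270.4 to 3646 CPM in WT. Most of that sum was Col2a1, which averaged 4488 CPM in KO and 2961 CPM in WT. Col2a1 and Sox9 were called higher, at 0.60 ± 0.04 and 0.52 ± 0.04. Matn1 and Col9a1 were called lower, at -4.54 ± 0.22 and -1.25 ± 0.04, and Acan, at 0.05 ± 0.09, was not called. The part of these other cells in the levels of the cycling genes was not tested.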

How the data were processed

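The deposited table held whole-number counts and FPKM for 6 libraries, per the file headers. The counts were made by the authors, and the sources used here state neither the counting method nor its strand setting. The FPKM values, scaled to length and library total, were computed by the authors and deposited beside the counts. The submitters' processing notes name cutadapt 1.9, HISAT2 2.0.4 and StringTie 1.3.4d and list a human build although all identifiers are of mouse. The build of the deposited coordinates was therefore not settled, and printed coordinates are those of RefSeq promoters in GRCm38.p6.

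Groups came from the sample titles. The main test, on both tails and with genotype alone in the model, was the quasi-likelihood test of edgeR 4.0.16 under R 4.3.3, after filterByExpr and TMM. P-values were adjusted over 18221 genes by Benjamini-Hochberg and called under 0.05. Each SE divides the log2 change by the root of its F statistic, and 95% intervals use edgeR's degrees of freedom. edgeR's common biological coefficient of variation was 12.6%. Replicates differed by more than sampling noise, with a mean chi-square of 10.3 to 18.6 per gene between pairs, so no library was a copy. Simulated data held 100 genes changed 1.5-fold and 100 changed 2-fold, with 17757 genes tested. Of the calls 11.0% were false, above the nominal threshold, and 70% and 92% of the changes were recovered. The share of genes changed was set lower than the share called in the real data, and no change under 1.5-fold was simulated. The simulation therefore does not measure how certain calls of small changes are. Such calls are to be taken as less certain than their adjusted p.

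Alternatives were DESeq2 1.42.0, limma 3.58.1 on log2(FPKM + 1) for genes whose FPKM averaged 1 or more, a pseudocount of 0.1, no filter, other scaling, a replicate block, a minimum fold of 1.5, Mybl2 and Ccna2 exchanged between classes, and each library left out. The members, their split into S phase and mitosis, the other lists and the tests were chosen with earlier results of these data known. Genes named from the other lists are those of lowest p, up to 4 a list, unless said otherwise (1 gene that the rule names is not reported here), and windows printed are those with the motif of the class and the lowest p, up to 4 a class.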

Additional observations from a re-analysis of the deposited data

How the results depend on the processing

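The 8 called members were called with the same sign in all 15 alternatives of test, scaling, filter, unit, block and left-out library, with adjusted p up to 0.0384 (E2f1 without KO replicate 1, edgeR with Benjamini-Hochberg adjustment). No member was called lower in any of them. The minimum fold is counted apart. Mitosis members called higher numbered 10 on library totals without TMM, 10 in limma on log2(FPKM + 1), 10 with a pseudocount of 0.1, 8 in limma with a replicate block, and 0 when a 1.5-fold change was also asked, where S phase members numbered 1. S phase calls were 3 in each fit without 1 library, and mitosis calls 5 to 6. The S phase median was 0.11 without TMM and 0.12 in limma with a pseudocount of 0.1, and 0.0079 to 0.084 with 1 library left out. The mitosis median was 0.15 without TMM, 0.14 in limma on log2(FPKM + 1), 0.15 with a pseudocount of 0.1, 0.14 without a filter and 0.14 with a replicate block, and 0.070 to 0.12 with 1 library left out. Signs turned only for uncalled members. Mcm2 was at 0.037 and Pcna at 0.035 without TMM. In limma Mcm2 was at 0.033 (0.037 with the smaller pseudocount, 0.033 without a filter and 0.033 with a block) and Pcna at 0.035 (0.036, 0.035 and 0.035 in the same order). With 1 library left out, Ccne2 ran from -0.021 to 0.13, Mybl2 from -0.010 to 0.25, Mcm2 from -0.042 to 0.015, Mcm3 from -0.0077 to 0.072, Mki67 from -0.024 to 0.033, Ccna2 from -0.028 to 0.041, Foxm1 from -0.011 to 0.065 and Cdca8 from -0.027 to 0.11. The cause was not tested. Same-numbered libraries correlated at -0.045, -0.030 and -0.0069 in their deviations over 18221 genes, so no shared effect of replicate number was seen. With 3 libraries per group these values cannot show that the libraries were unpaired, and the labels do not say. With a replicate block edgeR called 3 S phase and 5 mitosis members, as without it. The lowest count of a member in a library was 588, and 6 members that were not called (Mcm4, Ccnb1, Cdk1, Cenpe, Aurka and Aurkb) had 95% intervals that leave out 0.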
